A study of Mus musculus with 4 samples.

Results

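The genes described here are 10 genes of purine nucleotide metabolism, read in brown adipose tissue of mice with and without the transcription factor gene Ebf2. They are the GMP reductases Gmpr and Gmpr2, the IMP dehydrogenases Impdh1 and Impdh2, the lyase Adsl and the synthetase Adssl1 of the AMP branch, the AMP deaminases Ampd2 and Ampd3, and the salvage enzymes Hprt and Aprt. All 10 were found by symbol among the 12165 genes of the deposited table. The family was chosen by the genotype difference of Gmpr in these same libraries, and the list of 10 was drawn up with RPKM and fold changes known beforehand. The genotype difference of the 10 genes is therefore given as a description, without a p-value. Polyadenylated RNA was sequenced from 2 wild-type (WT) and 2 Ebf2 KO libraries, 1 replicate number per library. All mice were adults aged 8 weeks of a mixed strain, kept on chow at room temperature. The labels name no other allele or agent, and do not say which part of Ebf2 was removed, whether the loss was limited to a cell type, how many animals gave a library, or the sex of the mice. The spread between libraries of a group may thus be partly technical. By Xist, an RNA of the inactive X chromosome of females, Ebf2 KO replicate 2 stood apart. Xist was at 0.0353 RPKM there, and at 5.05 to 6.19 RPKM in the other libraries. This holds for every comparison below, and its part in the genotype differences was not tested.

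Purine nucleotides are built up to inosine monophosphate (IMP), which stands at a branch point. From IMP, IMP dehydrogenase and GMP synthetase lead to GMP, and adenylosuccinate synthetase and lyase lead to AMP. GMP reductase and AMP deaminase run back to IMP from either side, while HPRT and APRT rebuild nucleotides from free bases. Brown fat is the heat-producing fat, and its uncoupling protein UCP1 is inhibited by bound purine nucleotides, among them ATP and GDP. In rat brown fat, GMP reductase RNA is known to rise when the animal is exposed to cold.

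Levels are in RPKM, which scales the reads of a gene by its length and by the total of its library, so that genes can be compared per length. Depth was high throughout, with library totals between 162782640 and 199678916 reads. Ebf2, the targeted gene, stood at 2.97 and 2.63 RPKM in WT and at 0.391 and 0.352 RPKM in Ebf2 KO, which goes with the labels. Most genes read higher in Ebf2 KO, by a median of 0.455 on the log2(RPKM + 1) scale. The changes of the 10 genes, and the counts over groups of other purine genes, are therefore also given after every library was centred on its own median. For all 9 markers of brown fat cells, both Ebf2 KO libraries lay below both WT libraries (9.30% of all genes did so). Their summed levels were 11480 and 12370 RPKM in WT and 958.9 and 374.3 RPKM in Ebf2 KO. Ucp1 and Cox8b gave most of that sum in WT, and Cox8b in Ebf2 KO. The summed level of 8 markers of fat cells in general was 14320 to 19900 RPKM in WT and 32820 to 39130 RPKM in Ebf2 KO. Most of that sum was Fabp4 in every library. Both Ebf2 KO libraries lay above both WT libraries for 6 of the 8 (65.4% of all genes did so). They lay below them for Pparg, at 44.6 and 66.0 RPKM in WT and 35.4 and 31.1 RPKM in Ebf2 KO (9.30% of all genes did so). In RNA of a whole tissue, fewer cells of a type and less RNA per cell cannot be told apart.

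Gmpr, which converts GMP back to IMP, was the most abundant of the 10 genes in WT, but stood behind Hprt, Aprt, Adssl1 and Impdh2 in Ebf2 KO. Its level was 343.3 RPKM in WT replicate 1, 842.6 in WT replicate 2, 18.4 in Ebf2 KO replicate 1 and 17.4 in Ebf2 KO replicate 2. Behind these stood 106516, 231213, 5058 and 4394 reads. The groups did not overlap, and the lower WT library stood 18.6 times above the higher Ebf2 KO library. The WT mean of 592.9 ± 353.1 RPKM was 33.1 times the Ebf2 KO mean of 17.9 ± 0.752 RPKM (SD, n = 2 each). The WT libraries differed from each other 2.46-fold, with replicate 2 higher, whereas the Ebf2 KO libraries differed 1.06-fold. The log2 fold change was -4.83 (SE 0.384) on log2(RPKM + 1) and -5.36 (SE 0.379) after centring. By level, Gmpr ranked 205 and 50 among the 12165 genes in WT and 2454 and 2733 in Ebf2 KO. By log2 fold change it ranked 3 from the lowest of all genes, a rank that is part of why it was chosen.

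Gmpr2, the second GMP reductase, did not share this pattern. Its level was 5.64 and 6.75 RPKM in WT and 8.73 and 8.59 RPKM in Ebf2 KO, so both Ebf2 KO libraries lay above both WT libraries. The mean was 1.40 times that of WT, with a log2 fold change of 0.43 (SE 0.227), close to the median of all genes. After centring the log2 fold change was -0.094 (SE 0.216), so the sign of the Gmpr2 difference depends on the scaling. A ratio of both genes within a library is free of that scaling. Gmpr stood at 60.9 and 124.9 times the level of Gmpr2 in WT and at 2.11 and 2.02 times in Ebf2 KO. Gmpr thus made up 98.4% and 99.2% of the summed reductase level in WT, and 67.9% and 66.9% in Ebf2 KO. The summed level of both reductases was 348.9 and 849.4 RPKM in WT and 27.2 and 26.0 RPKM in Ebf2 KO, so the sum followed Gmpr.

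**Figure D1:**
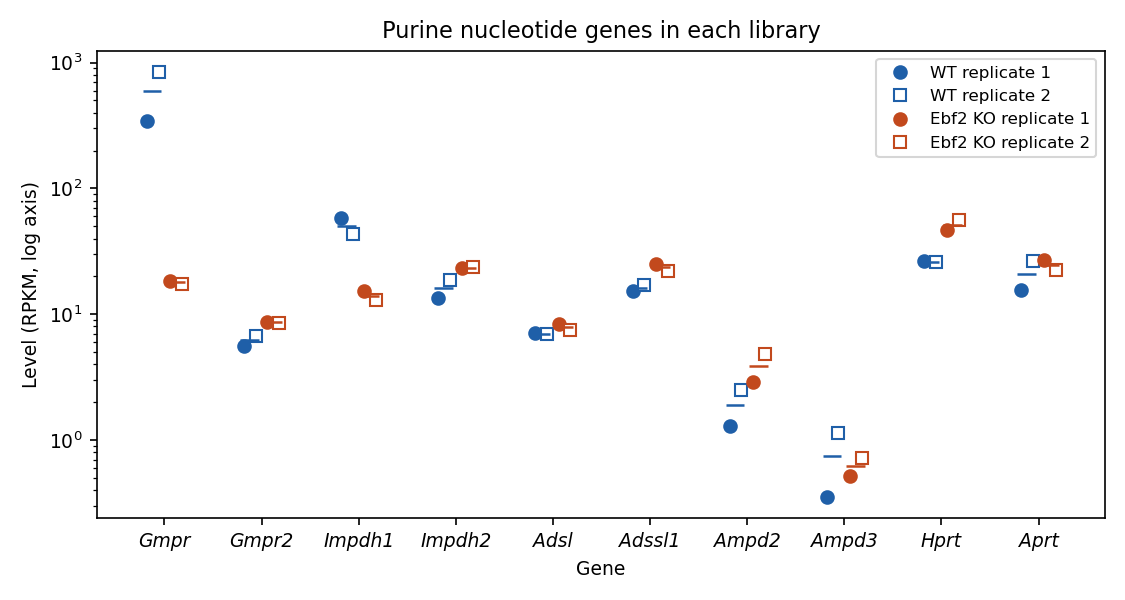
Level of each of the 10 genes in RPKM (log axis) in the 2 WT libraries (blue) and the 2 Ebf2 KO libraries (orange), with circles for replicate 1, squares for replicate 2 and short lines for the group means. Gmpr falls from a WT mean of 592.9 RPKM to 17.9 RPKM and Impdh1 from 50.6 to 14.1 RPKM, while the means of the other 8 genes differ by no more than 2.04-fold.

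The start regions of both reductase genes are shown because Gmpr was far lower in Ebf2 KO and Gmpr2 was not, and EBF proteins bind DNA through a core of the letters CCCNNGGG, a palindrome that reads alike on both strands. The windows hold 250 bases before and 50 bases after the annotated start, from RefSeq on build GRCm38.p6, and capitals mark the letters of that core. Gmpr lies at chr13:45507194-45507493 on the plus strand and Gmpr2 at chr14:55671985-55672284 on the plus strand. The reads themselves were aligned to mm9.
Gmpr: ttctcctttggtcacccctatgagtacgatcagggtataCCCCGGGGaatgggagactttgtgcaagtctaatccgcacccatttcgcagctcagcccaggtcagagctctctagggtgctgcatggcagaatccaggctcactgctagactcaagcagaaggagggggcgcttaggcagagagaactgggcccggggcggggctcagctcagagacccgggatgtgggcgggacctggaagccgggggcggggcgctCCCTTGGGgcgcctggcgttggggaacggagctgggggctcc
Gmpr2: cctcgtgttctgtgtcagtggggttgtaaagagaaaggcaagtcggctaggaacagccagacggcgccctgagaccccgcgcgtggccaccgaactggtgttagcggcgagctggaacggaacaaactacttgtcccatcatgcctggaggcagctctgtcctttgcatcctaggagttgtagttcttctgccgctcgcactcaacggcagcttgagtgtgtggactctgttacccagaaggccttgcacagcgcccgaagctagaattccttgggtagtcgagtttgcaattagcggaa
The Gmpr window held the core at 2 places, 1 beginning at position -211, counted back from the start, and 1 beginning at base 9 of the transcript. The second match reads CCCTTGGG, the other strand of CCCAAGGG. The Gmpr2 window held neither. Over 32851 windows of the same length, 13.7% held CCCNNGGG and 1.68% held CCCAAGGG on either strand. All 10 genes were matched to this table, with 14 windows because some have several starts, and 2 of the windows held CCCNNGGG, those of Gmpr and Aprt. No window of Impdh1, which was also lower in Ebf2 KO, held the core, and the levels of Aprt overlapped between the groups. The Gmpr window was 64% G and C, and the Gmpr2 window 56.3%. The letters describe the sequence, and binding was not measured here. Whether the core bears on the level of any of these genes was not tested.

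Impdh1 and Impdh2 both convert IMP to XMP, the step that commits IMP to GMP, and only Impdh1 was clearly lower in Ebf2 KO. Impdh1 was at 57.97 and 43.2 RPKM in WT and at 15.2 and 12.9 RPKM in Ebf2 KO. The groups did not overlap, and the WT mean of 50.6 ± 10.4 RPKM was 3.6 times the Ebf2 KO mean of 14.1 ± 1.59 RPKM (SD, n = 2 each). The log2 fold change of Impdh1 was -1.77 (SE 0.225), and -2.29 (SE 0.315) after centring, at rank 102 from the lowest of all genes. Impdh2 was at 13.5 and 18.6 RPKM in WT and at 23.2 and 23.7 RPKM in Ebf2 KO. Its Ebf2 KO levels lay above its WT levels, and its log2 fold change was 0.54 (SE 0.224), which centring brought to 0.013 (SE 0.242). In the authors' deposited table it was -0.074, so the sign of the Impdh2 difference depends on the processing. Within a library, the order of the pair turned over. Impdh1 stood at 4.29 and 2.33 times the level of Impdh2 in WT and at 0.655 and 0.546 times in Ebf2 KO. Impdh1 gave 81.1% and 70.0% of the summed dehydrogenase level in WT and 39.6% and 35.3% in Ebf2 KO. The summed level was 71.5 and 61.8 RPKM in WT and 38.4 and 36.6 RPKM in Ebf2 KO, so the loss of Impdh1 was larger than the gain of Impdh2 on this scale.

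**Figure D2:**
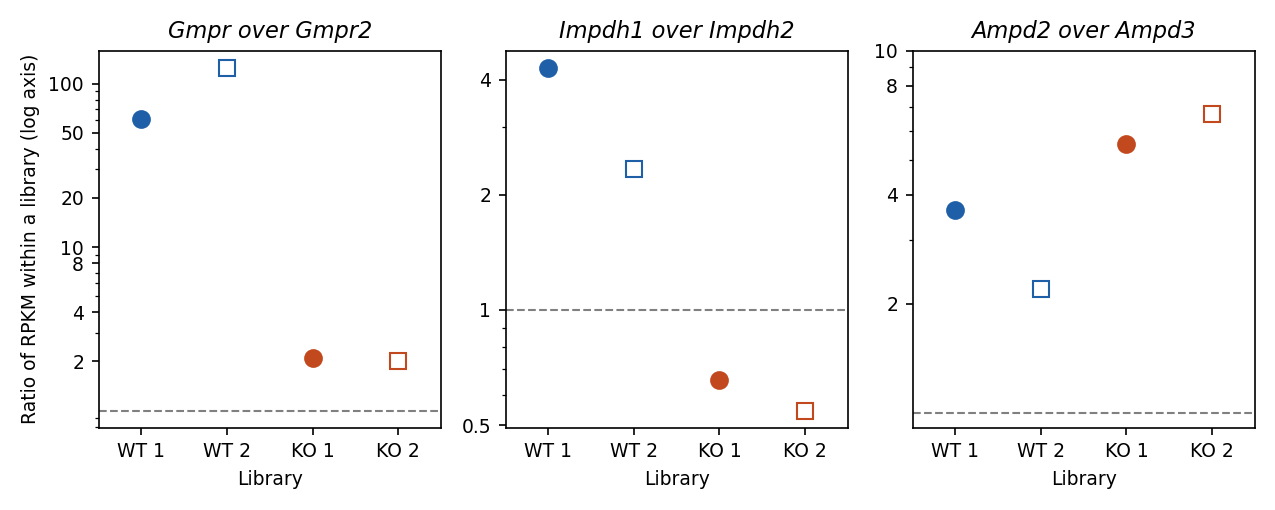
Ratio of RPKM of paired genes within each library (log axis), with WT in blue and Ebf2 KO in orange, and a dashed line at equal levels. Gmpr over Gmpr2 drops from 60.9 and 124.9 in WT to 2.11 and 2.02 in Ebf2 KO, Impdh1 over Impdh2 crosses equality, and Ampd2 over Ampd3 lies higher in both Ebf2 KO libraries.

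The AMP branch differed far less. Adsl, the lyase used both in IMP synthesis and in the last step to AMP, was at 7.11 and 6.92 RPKM in WT and at 8.39 and 7.55 RPKM in Ebf2 KO. Its log2 fold change was 0.16 (SE 0.222) on RPKM and -0.36 (SE 0.237) after centring, so its sign rests on the scaling. Adssl1, the adenylosuccinate synthetase isoform most abundant in skeletal muscle, was at 15.3 and 17.2 RPKM in WT and at 25.3 and 21.9 RPKM in Ebf2 KO. Its mean was 1.45 times that of WT, with a log2 fold change of 0.51 (SE 0.205), and of -0.012 (SE 0.258) after centring. Skeletal muscle markers moved much further than Adssl1. The summed level of 17 such markers, none listed at 0, was 1180 and 3076 RPKM in WT and 10800 and 12330 RPKM in Ebf2 KO. By the fit across all genes 15 of the 17 were called higher, and 13 after centring. Of all genes, 24.4% were called higher, and 8.42% after centring. The part of muscle RNA in the Adssl1 level was not tested.

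The AMP deaminases return AMP to IMP and were the lowest of the 10 genes. Ampd2, the broadly expressed isoform, was at 1.29 and 2.51 RPKM in WT and at 2.88 and 4.87 RPKM in Ebf2 KO, from 1006 to 3094 reads. The groups did not overlap, but replicate 2 stood above replicate 1 in both, by 1.94-fold in WT and 1.69-fold in Ebf2 KO. The mean of Ampd2 was 2.04 times that of WT, with a log2 fold change of 0.75 (SE 0.325), and 0.23 (SE 0.211) after centring. Ampd3, the isoform of red blood cells, was at 0.355 and 1.14 RPKM in WT and at 0.520 and 0.726 RPKM in Ebf2 KO. The values of Ebf2 KO lay between those of WT, and the 3.22-fold gap between the WT libraries was wider than that between the group means of 0.749 and 0.623 RPKM. The log2 fold change of Ampd3 was -0.073 (SE 0.244), and -0.60 (SE 0.169) after centring. On the log2(RPKM + 1) scale, a common scaling moves a gene below 1 RPKM less than a gene at a higher level. Centring subtracts the same amount from both. The comparison made by the authors also put Ampd3 lower, at -0.84, but it did not pass there (edgeR FDR 0.31). Without WT replicate 2 the value on log2(RPKM + 1) was 0.26, and without Ebf2 KO replicate 1 it was 0.019. The summed level of the 6 erythroid markers listed of 7, none at 0, was 1948 and 2862 RPKM in WT, and 8326 and 3035 RPKM in Ebf2 KO. The part of red cell RNA in the Ampd3 level was not tested. Within a library, Ampd2 was 3.63 and 2.19 times as high as Ampd3 in WT and 5.53 and 6.71 times in Ebf2 KO.

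Of the salvage enzymes, Hprt, which rebuilds IMP and GMP from hypoxanthine and guanine, had the highest log2 fold change of the 10 genes on log2(RPKM + 1), though not by ratio of means, with a pseudocount of 0.1 or in the authors' deposited table, where Ampd2 stood higher. It was at 26.4 and 25.8 RPKM in WT and at 47.0 and 56.0 RPKM in Ebf2 KO, so the groups stood clearly apart. The Ebf2 KO mean of 51.5 ± 6.37 RPKM was 1.97 times the WT mean of 26.1 ± 0.409 RPKM (SD, n = 2 each). Its log2 fold change was 0.95 (SE 0.199), and 0.43 (SE 0.276) after centring. Hprt is X-linked, and the X-linked Xist, an RNA of the inactive X chromosome of females, was at 5.05, 6.19 and 5.49 RPKM in WT replicates 1 and 2 and Ebf2 KO replicate 1, but at 0.0353 RPKM in Ebf2 KO replicate 2. The part of this difference between libraries in the Hprt level was not tested. Aprt, which rebuilds AMP from adenine, was at 15.6 and 26.4 RPKM in WT and at 27.0 and 22.5 RPKM in Ebf2 KO. The groups overlapped, and the log2 fold change of 0.27 (SE 0.276) turned to -0.26 (SE 0.276) after centring.

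Over the 10 genes together, the summed level was lower in Ebf2 KO and Gmpr no longer made up most of it. The sum was 486.4 and 991.1 RPKM in WT and 176.6 and 176.2 RPKM in Ebf2 KO. Gmpr alone made up 70.6% and 85.0% of that sum in WT and 10.4% and 9.86% in Ebf2 KO. The summed level of the 8 genes other than Gmpr and Impdh1 was 85.1 and 105.3 RPKM in WT and 143.0 and 145.9 RPKM in Ebf2 KO. The median log2 fold change of these 8 was 0.471 against 0.455 for all genes, and -0.053 against -0.07 after centring. Both Ebf2 KO libraries lay below both WT libraries for Gmpr and Impdh1 (9.30% of all genes did so), and above them for 6 of the 10 genes (65.4% of all genes did so). By limma with Benjamini-Hochberg adjustment over all genes, 2 of the 10 genes were lower and 1 was higher at an adjusted p under 0.05, where 3.54% of all genes were lower and 24.4% were higher (28.0% in either direction). After centring, 3 were lower, namely Gmpr, Impdh1 and Ampd3, and the other 7 did not pass, against 10.3% and 8.42% of all genes (18.7% in either direction). Since the genes were chosen with this difference known, these counts describe the set and nothing is read from them. Gmpr had a log2 fold change of -5.62 and Impdh1 of -2.51 in the authors' deposited table, which placed the other 8 genes between -0.84 and 0.41.

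**Figure D3:**
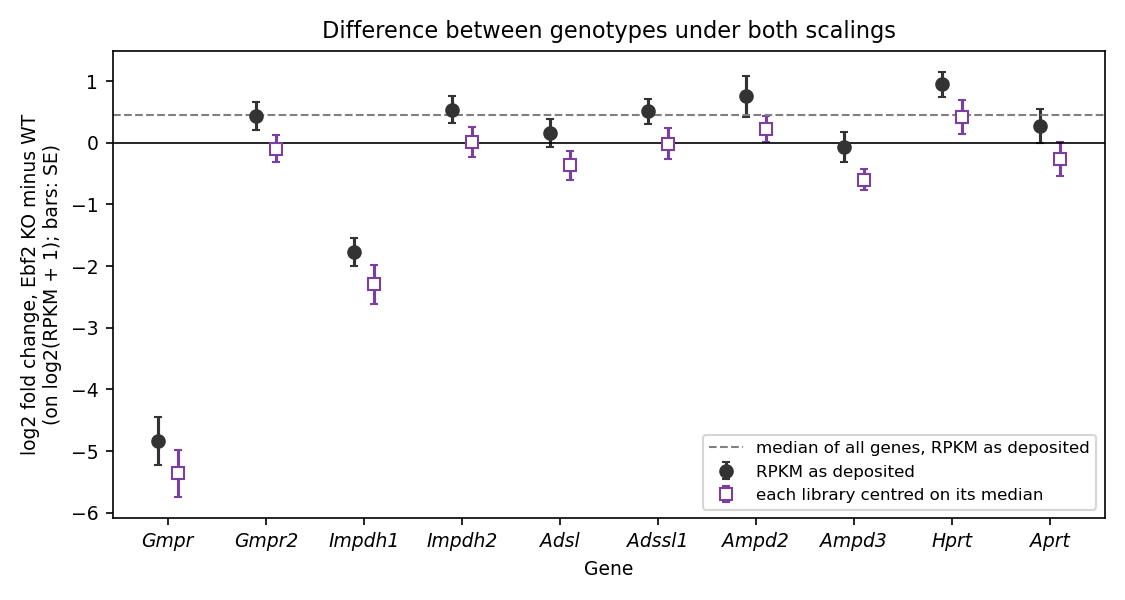
Log2 fold change of each of the 10 genes, Ebf2 KO minus WT, on log2(RPKM + 1), from the RPKM as deposited (filled) and after centring each library on its median (open), with SE bars and n = 2 libraries per group. Gmpr at -4.83 and Impdh1 at -1.77 lie below 0 under both scalings, and the other 8 genes lie between -0.073 and 0.95 before centring, around the dashed median of all genes at 0.455.

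The wider pathway was read through 73 further purine genes, of which 58 were in the table, and here each gene was tested. By limma with Benjamini-Hochberg adjustment over all 12165 genes, 21 of the 58 were higher in Ebf2 KO and 3 were lower, and 34 did not pass. Over all genes the shares were 24.4% higher and 3.54% lower. After centring, 11 were higher and 10 were lower, where all genes gave 8.42% and 10.3%. The median log2 fold change of the 58 was 0.509 against 0.455 for all genes. The 3 that fell, Gmps, Pnp and Slc29a2, were also called after centring, in the authors' deposited table and with quantile normalization. Of the 21 that rose, 7 were called in all of these, namely Prps1, Gda, Xdh, Nt5e, Samhd1, Entpd6 and Adora1. The counts were lowest when Ebf2 KO replicate 2 was left out: 6 genes were then higher and 0 lower at an adjusted p under 0.05, with 21 higher and 3 lower at an unadjusted p under 0.05. Without Ebf2 KO replicate 1, 15 were higher and 0 lower, with 23 and 3 at an unadjusted p under 0.05. Of the 24 calls, 6 held without each library in turn, those of Prps1, Gda, Xdh, Nt5e, Nme3 and Entpd6.

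**Figure D4:**
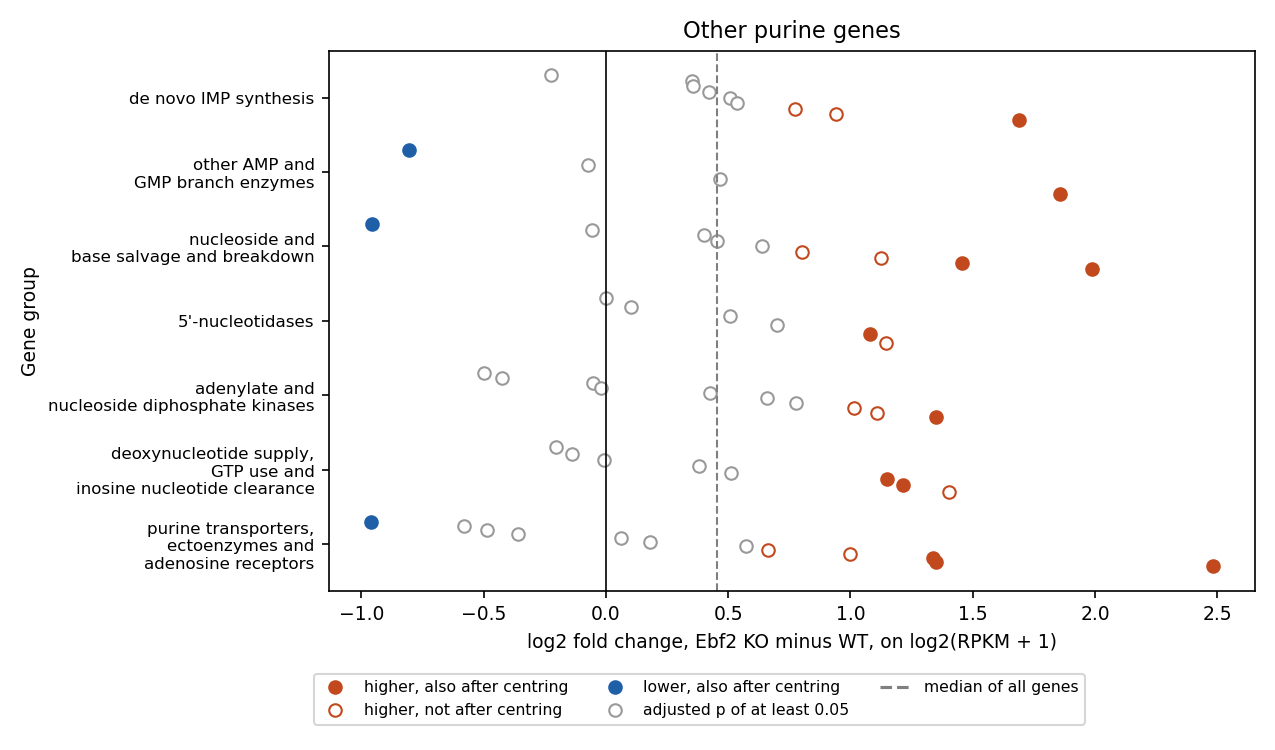
Log2 fold change on log2(RPKM + 1), Ebf2 KO minus WT, of 58 further purine genes (1 point each) by group, coloured by the limma call and filled where the call also held after centring. Calls to the right number 21 and calls to the left 3, around the dashed median of all genes at 0.455.

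Around the GMP node, Gmps fell beside Gmpr and Impdh1. Gmps, which turns XMP into GMP, was at 10.4 and 11.5 RPKM in WT and at 6.01 and 5.70 RPKM in Ebf2 KO. The groups did not overlap, and the log2 fold change was -0.81 (SE 0.220, limma adjusted p = 0.0338, and 0.00339 after centring). The call was lost without Ebf2 KO replicate 1 (adjusted p = 0.0999) or replicate 2 (0.187). Gmpr stood at 32.9 and 72.97 times the level of Gmps in WT and at 3.07 and 3.05 times in Ebf2 KO. Guk1, the kinase that takes GMP to GDP, was at 27.9 and 29.3 RPKM in WT and at 26.6 and 27.6 RPKM in Ebf2 KO and did not pass (adjusted p = 0.776); it is named for its place in the pathway.

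Of the other branch enzymes, Ampd1, the AMP deaminase of skeletal muscle, rose. It was at 1.10 and 4.88 RPKM in WT and at 9.39 and 14.6 RPKM in Ebf2 KO, with a log2 fold change of 1.86 (SE 0.469, limma adjusted p = 0.0275, and 0.0908 without Ebf2 KO replicate 2). The call was also lost with quantile normalization (0.0686). Set against the summed level of the other 16 muscle markers, Ampd1 was at 0.932 and 1.59 RPKM per 1000 RPKM of markers in WT and at 0.870 and 1.18 in Ebf2 KO. These ranges overlap, but with 2 libraries a group nothing is read from that. The part of muscle RNA in the Ampd1 level was not tested. Adss, the other adenylosuccinate synthetase, went from 5.05 and 6.26 to 6.62 and 9.98 RPKM and did not pass (adjusted p = 0.205); it is named as the partner of Adssl1.

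In de novo synthesis, 3 of 9 genes rose and the other 6 did not pass, where 24.4% of all genes rose. After centring 1 was higher and 1 lower. Prps1, a synthetase of the ribose donor PRPP, was at 5.96 and 5.68 RPKM in WT and at 19.5 and 22.6 RPKM in Ebf2 KO. Its mean was 3.61-fold higher, with a log2 fold change of 1.69 (SE 0.213, limma adjusted p = 0.00374, and 0.00817 after centring), and it is X-linked like Hprt. The adjusted p of Prps1 was 0.0136 without Ebf2 KO replicate 2, the library with low Xist, and the part of that difference in the Prps1 level was not tested. Prps2, the other PRPP synthetase listed, did not pass (adjusted p = 0.0881) and was named after its values were seen. The synthetase-associated proteins Prpsap1 and Prpsap2 rose 2.04-fold and 1.93-fold (adjusted p = 0.0277 and just under 0.05). Both of these calls were lost after centring (0.242 and 0.435), without WT replicate 1 (0.0543 and 0.115), without Ebf2 KO replicate 1 (0.105 and 0.133) and without Ebf2 KO replicate 2 (0.097 and 0.324). The enzymes that build the purine ring, Ppat, Gart, Pfas, Paics and Atic, did not pass on RPKM. After centring Pfas was lower (adjusted p = 0.0152), and these ring enzymes are named for their place in the pathway.

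Among genes of salvage and breakdown, 4 of the 9 listed rose and 1 fell, where 24.4% of all genes rose and 3.54% fell. After centring 2 were higher and 2 lower. Pnp, which splits inosine and guanosine into base and sugar phosphate, was at 17.3 and 26.9 RPKM in WT and at 10.8 and 10.5 RPKM in Ebf2 KO (log2 fold change -0.96, SE 0.253, limma adjusted p = 0.031). The Pnp call was lost without WT replicate 2 (0.0549), Ebf2 KO replicate 1 (0.0599) or Ebf2 KO replicate 2 (0.114). Its reads can be shared with its near-identical neighbour Pnp2, so this value is uncertain. Xdh, which oxidises hypoxanthine and xanthine to uric acid, was at 1.55 and 1.72 RPKM in WT and at 8.84 and 10.1 RPKM in Ebf2 KO. This is a 5.78-fold higher mean (log2 fold change 1.99, SE 0.243, adjusted p = 0.00342, and 0.00123 after centring). Gda, which deaminates guanine to xanthine, went from 0.756 and 0.715 RPKM to 4.40 and 3.19 RPKM (log2 fold change 1.46, SE 0.246, adjusted p = 0.00859). Mtap, which frees adenine for salvage, rose 2.69-fold to 6.29 ± 0.0697 RPKM (SD, n = 2), a call lost after centring (0.0751), without Ebf2 KO replicate 1 (0.065) and without Ebf2 KO replicate 2 (0.109). Macrophage markers, none at 0, were also higher in Ebf2 KO. Their summed level was 16.4 and 44.9 RPKM in WT and 81.2 and 74.97 RPKM in Ebf2 KO. For 6 of 6 listed, both Ebf2 KO libraries lay above both WT libraries (65.4% of all genes did so). The fit called 3 of the 6 higher, where 24.4% of all genes rose. The summed level of fibroblast markers, none at 0, went from 191.8 and 432.9 RPKM to 1075 and 1897 RPKM. Of these, 5 of 5 did not overlap and 5 were called higher, against the same shares of all genes. The skeletal muscle markers given above shared this direction. In WT, the macrophage and fibroblast sums were higher in replicate 2 than in replicate 1, and Xdh and Gda were at similar levels in both. With 2 WT libraries and Gda below 1 RPKM in WT, nothing is read from this. The part of any of these cell types in the levels of Xdh and Gda was not tested.

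The remaining groups are read against the same background, in which 24.4% of all genes rose and 3.54% fell on RPKM. Of 6 nucleotidases, 2 rose and the other 4 did not pass, and after centring 1 was higher. Nt5c went from 13.9 and 15.0 RPKM to 31.2 and 35.2 RPKM (log2 fold change 1.15, limma adjusted p = 0.00949), but not after centring (0.111) or without Ebf2 KO replicate 2 (0.0548). Nt5e, the ectoenzyme CD73 that makes adenosine from AMP, was at 0.133 and 0.301 RPKM in WT and at 1.57 and 1.56 RPKM in Ebf2 KO. It lies below the level asked of named genes and was named after its values were seen (adjusted p = 0.00872, and 0.0422 after centring). Of 10 adenylate and nucleoside diphosphate kinases, 3 rose and the other 7 did not pass, a share near that of all genes. After centring 1 was higher and 1 lower, and 2 were lower and none higher in the authors' deposited table. The kinases that rose on RPKM were Ak1 2.01-fold, Nme3 2.22-fold and the mitochondrial Nme4 3.16-fold (adjusted p = 0.0358, 0.0139 and 0.02). Only Nme4 of these also passed after centring (0.0255). Ak1 is the adenylate kinase of skeletal muscle, whose markers were also higher in Ebf2 KO. The part of muscle RNA in the Ak1 level was not tested. The call of Ak1 was lost without WT replicate 1 (0.0603) or Ebf2 KO replicate 2 (0.151), and that of Nme4 without Ebf2 KO replicate 1 (0.0535) or replicate 2 (0.0708). Of 8 genes of deoxynucleotide supply, GTP use and inosine nucleotide clearance, 3 rose and the other 5 did not pass, and after centring 2 were higher and 1 lower. Those that rose on RPKM were the deoxynucleotide hydrolase Samhd1 2.96-fold, the inosine diphosphatase Nudt16 2.93-fold and Gchfr, a regulator of GTP cyclohydrolase, 2.46-fold (adjusted p = 0.0169, 0.0284 and 0.0388). Gchfr was lost after centring (0.101). Without Ebf2 KO replicate 2 none of the 3 passed (0.13, 0.154 and 0.104), and Nudt16 was also lost without WT replicate 1 (0.0752) and Ebf2 KO replicate 1 (0.0524).

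Of 12 listed transporters, ectoenzymes and adenosine receptors, 5 rose and 1 fell, where 24.4% of all genes rose and 3.54% fell. After centring 3 were higher and 4 lower, and 4 were higher and 4 lower in the authors' deposited table. Entpd6, a nucleoside diphosphatase, was at 3.68 and 4.22 RPKM in WT and at 34.97 and 20.2 RPKM in Ebf2 KO, a 6.98-fold higher mean (log2 fold change 2.48, SE 0.289, limma adjusted p = 0.00298, and 0.00241 after centring). Adora1, the adenosine receptor that restrains lipolysis in fat cells, went from 3.25 and 3.14 RPKM to 8.91 and 10.5 RPKM (log2 fold change 1.35, SE 0.236, adjusted p = 0.00963, and 0.0692 without Ebf2 KO replicate 2). Entpd2, an ecto-ATPase, rose 2.85-fold (adjusted p = 0.0274), a call lost with quantile normalization (0.0766) and without Ebf2 KO replicate 2 (0.149). Slc29a2, a nucleoside transporter, fell from 1.42 and 2.21 RPKM to 0.403 and 0.462 RPKM (log2 fold change -0.96, SE 0.218, adjusted p = 0.0202, and 0.000371 after centring). The Slc29a2 call was lost without Ebf2 KO replicate 1 (0.0704) or replicate 2 (0.107).

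The level pattern of Gmpr over the 4 libraries was then compared with that of 5475 other genes whose mean reached 5 RPKM. Likeness was the Euclidean distance between log2(RPKM + 1) values, each gene centred on its own mean. With 4 libraries, this distance rests mostly on the genotype difference by which Gmpr was chosen. The list therefore mainly names other genes far lower in Ebf2 KO, and nothing more is read from it. The 5 nearest genes were Ffar4 at 0.741, Cox7a1 at 0.831, Gyk at 0.944, Otop1 at 0.951 and Cpt1b at 1.0. Their log2 fold changes ran from -4.555 to -4.238, near that of Gmpr. None of them is a purine gene. Ffar4 is a fatty acid receptor, Cox7a1 a cytochrome oxidase subunit, Gyk a glycerol kinase, Otop1 a proton channel and Cpt1b a carnitine palmitoyltransferase. Cox7a1 and Cpt1b are also among the 9 brown fat markers. Ffar4, the nearest, was at 108.3 and 136.9 RPKM in WT and at 4.52 and 4.07 RPKM in Ebf2 KO. The WT libraries of the 5 genes differed by 1.005-fold to 1.43-fold, less than the 2.46-fold of Gmpr. Among the 9 brown fat markers, ratios of WT to Ebf2 KO means ran from 4.38 for Ppara to 1049 for Ucp1, and the 33.1 of Gmpr lay between Cox7a1 at 22.2 and Cidea at 41.8. Per 1000 RPKM of Ucp1, Gmpr was at 68.4 and 147.0 RPKM in WT and at 2495 and 6069 RPKM in Ebf2 KO, so Ucp1 fell by a larger factor than Gmpr.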

How the data were processed

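Brown adipose tissue RNA of 2 WT and 2 Ebf2 KO libraries was analysed from 1 table, in which the authors deposited, per the file headers, RPKM of each library, RPKM means, and their own comparison (log2 fold change, log2 CPM, p-value and FDR). Per the submitters' processing notes, the authors used STAR, edgeR and build mm9. Not given in the sources used here are versions, counting tool, annotation and strand setting, so reads of overlapping or antisense genes cannot be told apart. Every gene listed reached at least 0.502 RPKM in some library.

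Library totals were found from microRNA genes of known length (152 to 157 per library; RefSeq, GRCm38.p6), and with them all 12165 genes gave whole reads within 1e-06 reads. Reads are the smallest whole numbers that fit, and a factor common to all 4 libraries would not be seen. At 1 kb, 1 read was worth 0.00501 to 0.00614 RPKM, so counting error was small for the 10 genes.

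The test was limma 3.58.1 (R 4.3.3) on log2(RPKM + 1), with a variance trend, all 4 libraries and genotype alone in the model. Benjamini-Hochberg adjustment ran over all 12165 genes, with calls at an adjusted p under 0.05. This scale understates changes of genes near 1 RPKM; fold values are ratios of mean RPKM. A count test had been planned only in case the table held counts. Median centring subtracts each library's median. The members, gene lists and tests were chosen with earlier results of these data known. Up to 4 called genes of at least 1 RPKM were named per list by smallest p, which gave 20. Guk1, Adss, the ring enzymes, Prps2, Nt5e and Xist lie outside this rule and were named after their values were seen.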

Additional observations from a re-analysis of the deposited data

How the results depend on the processing

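The log2 fold change of Gmpr stayed below 0 under all 10 alternatives (-5.62 to -4.19), as did that of Impdh1 (-2.51 to -1.56). Hprt (10 of 10) and Ampd2 (9 of 9) stayed above 0, while Gmpr2, Impdh2, Adsl, Adssl1, Ampd3 and Aprt changed sign under at least 1. The replicate block, and the 5 RPKM filter for genes that pass it, leave the value itself unchanged. The groups of Gmpr, Impdh1, Hprt and Ampd2 did not overlap, so leaving out 1 library or a smaller pseudocount could not change their sign. Only centring, quantile normalization and the authors' values could have done so. Gmpr moved to -5.62 with the authors' deposited values, and Impdh1 to -2.29 with median centring, -2.24 with quantile normalization and -2.51 with the authors' values. Over all genes, 2971 were higher and 431 lower; with median centring the counts were 1024 and 1253, with quantile normalization 1048 and 1010, at an adjusted p under 0.01 they were 565 and 145, and 1325 and 1277 by the authors' deposited values. With a mean of at least 5 RPKM, 1717 were higher. Of the other purine genes, 21 were higher and 3 lower; the counts were 11 and 10 with median centring, 8 and 10 with quantile normalization, 7 and 0 at an adjusted p under 0.01 (27 and 5 at an unadjusted p under 0.05), 10 and 9 in the authors' table, and 11 higher with a mean of at least 5 RPKM. Leaving out 1 library each gave 810 to 4477 genes higher and 166 to 561 lower over all genes, and 6 to 26 higher and 0 to 4 lower among the other purine genes. Without Ebf2 KO replicate 2, 18 of 24 purine calls were lost. When each library was left out in turn, the log2 fold change of Gmpr ranged from -5.48 to -4.19 and that of Impdh1 from -1.97 to -1.56. With the replicate number as a block, 6325 genes were higher and 746 lower, and 29 and 5 of the other purine genes. The deviations of same-numbered libraries correlated at r = 0.348 across genes, but the labels do not say that a number marks a shared litter or batch. Ebf2 KO replicate 2 was also the library with low Xist. The cause of these shifts was not tested. Ampd3, the lowest of the 10 genes, rested on 303 to 862 reads per library, a counting error that is small beside the 3.22-fold gap between its WT libraries.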
